A study of Zea mays with 12 samples.

Results

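In maize endosperm 16 days after pollination, 108 of 39448 gene models were lower with RNA interference against the prolamin-box binding factor gene (pbf1) in both genetic backgrounds that were sampled, one with and one without a working opaque2 (o2) gene. They were chosen on their measured levels. The mean FPKM (a level per transcript length and per total of mapped fragments) plus 0.5 was at most 0.5 of that of the matching genotype without RNAi, in PbfRNAi against WT and in PbfRNAi;o2 against o2. The 3 libraries of one genotype did not overlap with the 3 of the other in either comparison, the highest of the 4 genotype means lay between 5 and 300, and pbf1 itself was left out. These 2 comparisons therefore describe the genes and carry no test.

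The 4 genotypes were WT (wild type), PbfRNAi, the opaque2 mutant (o2) and PbfRNAi;o2, which carries both lesions, with 3 replicates each and 12 libraries in all. All plants were field-grown, and no genotype received a further treatment. Not given in the sources used here are the RNAi construct, its promoter, the number of transformation events and the parent stocks of each genotype, nor whether a replicate pools several ears. PBF is a transcription factor of the Dof family, a plant family of zinc finger proteins, and is known to bind the prolamin box in the promoters of genes for zeins, the storage proteins that fill the maize kernel. O2 is a bZIP factor that binds nearby and acts on many of the same promoters. Both are known from the starchy endosperm, the large inner tissue of the kernel, which is bounded by the aleurone, by transfer cells at its base and by the embryo surrounding region.

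The targeted gene was measured first. The pbf1 transcript (GRMZM2G146283) stood at FPKM 110.3, 102 and 97.6 in WT, 56.7, 44.1 and 39.1 in PbfRNAi, 242, 307 and 331 in o2 and 64.8, 58.7 and 54.9 in PbfRNAi;o2. Its ratio was 0.453 in PbfRNAi against WT and 0.204 in PbfRNAi;o2 against o2, so transcript remained in every RNAi library. The o2 transcript (GRMZM2G015534) was at most 0.804 in every library of the 2 genotypes with the o2 mutation. In the WT background it was also lower with Pbf RNAi, at 97.3, 128 and 133 in PbfRNAi against 229.7, 195 and 189 in WT (ratio 0.585, without overlap). The PbfRNAi against WT comparison therefore also carries less o2 transcript, and the part of this in the members' levels was not tested. Zein transcripts, which define starchy endosperm, summed to 58833 or more in every library, and 5 of 6 green tissue markers were below 1 throughout. FPKM sums ran from 430405 to 519817 and the read depth is unknown, so no counting interval is given. In each genotype replicate 1 lay apart, with a correlation across genes of 0.955 to 0.970 with replicates 2 and 3, against 0.989 to 0.995 between those 2 (genes are not independent replicates). Nothing in the labels says that the replicates came from separate plants, so p-values measure only the spread between these libraries.

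Of 11338 gene models with a highest genotype mean between 5 and 300, 284 had a ratio of 0.5 or less in PbfRNAi against WT, 302 in PbfRNAi;o2 against o2, and 119 in both. No overlap of libraries in either comparison left 109, pbf1 included. By the mirrored rule 301 genes were higher with Pbf RNAi in both backgrounds. The same rule applied to the o2 mutation gave 49 genes lower and 418 higher without O2 in both. All 108 members passed the filter on low values of the fit across all genes, and 102 were called lower in PbfRNAi against WT and 105 in PbfRNAi;o2 against o2. Among all 17058 genes tested 5.16% were called lower in the first comparison and 7.84% in the second, and nothing is read from the members' share since the rule used both comparisons.

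The members were mostly genes of modest level that kept part of their transcript. The median over members of the genotype mean was FPKM 7.25 in WT, 1.20 in PbfRNAi, 8.68 in o2 and 1.995 in PbfRNAi;o2. The median ratio was 0.296 in PbfRNAi against WT, from 0.00740 to 0.497, and 0.266 in PbfRNAi;o2 against o2, from 0.00967 to 0.499. By replicate number the median ratio was 0.252, 0.293 and 0.309 for the first comparison and 0.346, 0.240 and 0.226 for the second. Ratios of 0.25 or less were seen for 44 members in the first and 49 in the second. In 65 of the 108 the 2 ratios lay within 1.5-fold of each other, and in 4 they were over 3-fold apart.

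**Figure D1:**
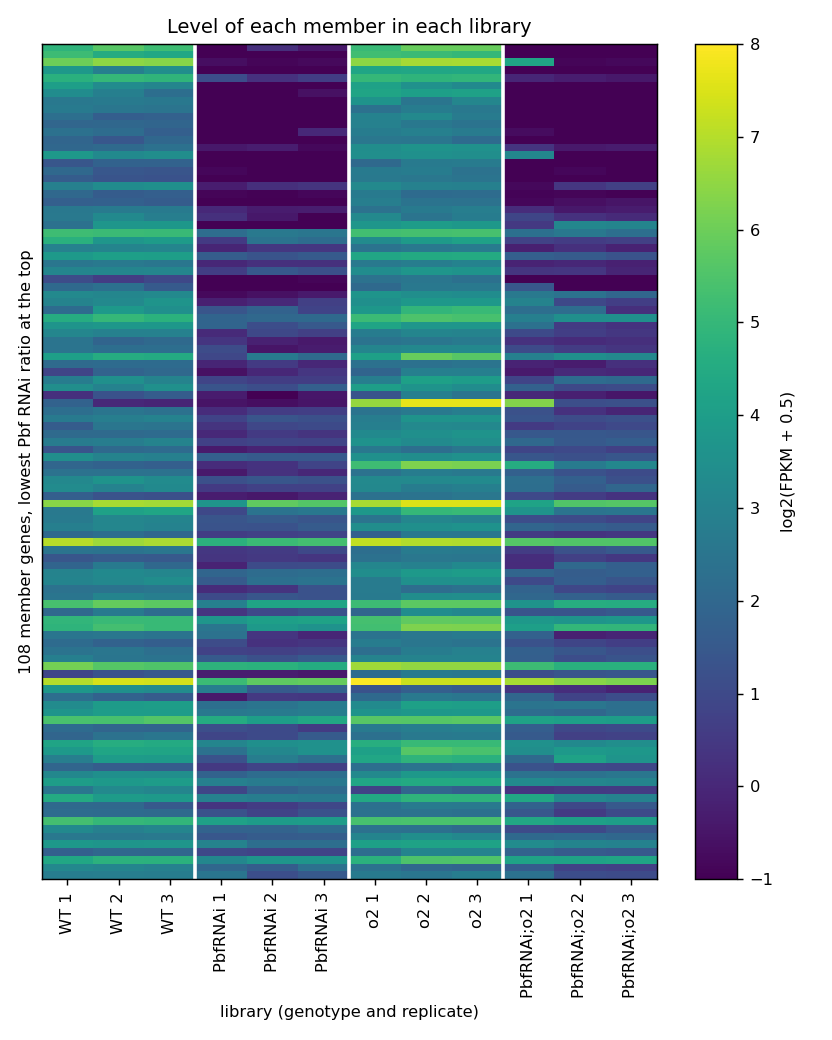
Level of each of the 108 members (rows, lowest Pbf RNAi ratio at the top) in each of the 12 libraries (columns), as log2(FPKM + 0.5). In every row the 3 PbfRNAi columns are darker than the 3 WT columns and the 3 PbfRNAi;o2 columns darker than the 3 o2 columns, which the rule fixes, and PbfRNAi;o2 replicate 1 is brighter than its 2 companions in a few rows near the top and middle.

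By the larger of their ratios, 5 genes stood just inside the limit. GRMZM2G414621 had ratios of 0.173 and 0.499, GRMZM2G082312 of 0.497 and 0.497, and GRMZM2G163189 of 0.496 and 0.406. The actin model GRMZM2G126190 had 0.493 and 0.251, and hir1 had 0.491 and 0.267. Just outside stood GRMZM2G146337 (0.391 and 0.500007), GRMZM2G115721 (0.500411 and 0.511), GRMZM2G175101 (0.313 and 0.514), GRMZM2G020146 (0.313 and 0.515) and GRMZM2G327174 (0.516 and 0.342). Genes on either side of the limit thus had nearly the same ratios.

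A gene name was found in the reference table for 15 members, and 3 of them are markers of endosperm border tissues. The gene betl1 (GRMZM2G082785) encodes a small secreted protein of the basal endosperm transfer layer, where nutrients enter the endosperm from the mother plant. Its FPKM was 84.8, 112 and 106 in WT, 12.1, 55.6 and 47.8 in PbfRNAi, 112, 182 and 184 in o2 and 18.1, 46.2 and 48.8 in PbfRNAi;o2. Replicate 1 was the lowest library in each genotype, and the RNAi libraries still reached at most 55.6 against at least 84.8 without RNAi. The gene MEG1 (GRMZM2G354335) is known as a maternally expressed gene of the same transfer cells and belongs to a family of similar copies, so its level is uncertain. Its FPKM was 6.68, 14.9 and 14.6 in WT, 1.90, 6.52 and 4.42 in PbfRNAi, 19.6, 28.1 and 26.0 in o2 and 3.74, 17.8 and 12.3 in PbfRNAi;o2, and its lowest WT library lay just above the highest PbfRNAi library, at 6.68 against 6.52. The gene esr6 (GRMZM2G048353) encodes a defensin-like protein of the embryo surrounding region. Its FPKM was 3.62, 5.83 and 4.01 in WT, 0.795, 1.49 and 1.89 in PbfRNAi, 3.35, 9.93 and 8.40 in o2 and 2.03, 2.02 and 2.38 in PbfRNAi;o2, with o2 replicate 1 well below the other o2 libraries.

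Markers of the basal transfer layer were examined as a list, which includes the members betl1 and MEG1, chosen by the rule. Of 10 models 7 were tested, and 3 were called lower and none higher in PbfRNAi against WT (betl1, betl4 and mn1). In PbfRNAi;o2 against o2, 1 was called lower (betl1) and none higher. Without the 2 members, a choice made after the values were seen, 2 of 5 were called lower in the first comparison and 0 in the second, with median log2 changes of −0.75 and −0.58 against 0.16 and 0.05 for all genes tested. With the replicate block, which pairs same-numbered libraries, 4 of these 5 were called lower in the first (betl4, mn1, betl3 and betl10) and 1 in the second (betl10), where 6.82% and 11.1% of all genes were. No call in either fit came for bap2, with means of 25.1 in WT and 28.9 in PbfRNAi (log2 0.07, limma adjusted p = 0.94). Its means were 77.4 in o2 and 59.3 in PbfRNAi;o2 (log2 −0.45, limma adjusted p = 0.59, or 0.059 with the block). The gene betl10 stood at 93.9, 208 and 195 in o2 and 36.1, 103 and 89.6 in PbfRNAi;o2 (log2 −1.16, limma adjusted p = 0.092, or 0.00045 with the block). The gene betl4, another small transfer cell protein, went from 27.7 ± 3.75 (SD, n = 3) to 6.50 ± 2.87 in PbfRNAi (log2 −2.01, limma adjusted p = 0.0059), and stood at 29.6 ± 6.04 in o2 and 21.8 ± 11.6 in PbfRNAi;o2 (adjusted p = 0.38, or 0.092 with the block). The cell wall invertase gene mn1 had means of 9.58 ± 2.48 in WT and 3.40 ± 1.07 in PbfRNAi (log2 −1.27, limma adjusted p = 0.026), and of 11.5 ± 0.254 in o2 and 12.1 ± 6.29 in PbfRNAi;o2 (adjusted p = 0.89). In PbfRNAi;o2 replicate 1 was the lowest for both, at 8.44 for betl4 and 4.84 for mn1. The summed FPKM of the list ran from 56.8 to 171 in PbfRNAi against 197 to 285 in WT, and from 99.2 to 301 in PbfRNAi;o2 against 312 to 573 in o2. Both members had been chosen for libraries that do not overlap, and for the other 5 tested markers the sums did overlap, at 42.4 to 108 against 105 to 158 and at 77.1 to 236 against 179 to 363. The transfer layer regulator MRP1 and the 2 genes ebe1 and ebe2 were below 1 in every library. In RNA from whole endosperm, fewer transfer cells and less RNA per cell cannot be told apart, and the part of transfer cell content in the levels of the other members was not tested. Aleurone markers had 1 higher call and no lower call of 8 in each comparison, with summed FPKM of 237 to 277 in PbfRNAi against 227 to 233 in WT, and of 315 to 396 in PbfRNAi;o2 against 275 to 340.4 in o2. Embryo markers had 2 higher and none lower of 6 in each. With the replicate block the higher calls were 3 and 2 for the aleurone and 2 and 4 for the embryo, where 24.2% and 19.3% of all genes were called higher. With median-of-ratios scaling they became 0 for the aleurone in both comparisons, and 0 and 1 for the embryo. Of 2 tested markers of the embryo surrounding region 1, the member esr6, was called lower in each comparison. The other, ESR1, was not called and went the other way at a low level. Its means were 0.448 in WT, 2.71 in PbfRNAi, 1.03 in o2 and 1.46 in PbfRNAi;o2.

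The gene apx2 (GRMZM2G140667) encodes an ascorbate peroxidase, which removes hydrogen peroxide. Its FPKM was 42.0, 41.5 and 47.6 in WT, 22.5, 16.2 and 20.6 in PbfRNAi, 49.6, 49.1 and 51.7 in o2 and 17.5, 16.3 and 15.5 in PbfRNAi;o2, among the tightest of the named genes. The gene hir1 (GRMZM2G117755), of the hypersensitive induced reaction family, stood at 30.2, 34.03 and 33.4 in WT, 12.8, 16.6 and 17.7 in PbfRNAi, 39.7, 55.3 and 53.5 in o2 and 13.4, 12.1 and 13.1 in PbfRNAi;o2. The peroxidase gene pox1 (GRMZM2G104394) stood at 4.99, 4.90 and 5.25 in WT, 0.867, 0.989 and 1.44 in PbfRNAi, 4.22, 6.22 and 6.09 in o2 and 1.03, 1.86 and 2.38 in PbfRNAi;o2. In all 3 genes every RNAi library lay below every library without RNAi. The pathogenesis-related gene PR10 (GRMZM2G112524) differed, since it was low in WT and high in o2. Its FPKM was 3.47, 3.09 and 2.80 in WT, 0.606, 0.743 and 1.30 in PbfRNAi, 36.5, 77.1 and 71.8 in o2 and 23.3, 6.16 and 8.58 in PbfRNAi;o2, so each PbfRNAi;o2 library was above every WT library although it was below every o2 library.

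The aquaporin gene PIP1-3 (GRMZM2G392975; the reference table also gives the name PIP1-4), whose product lets water pass the plasma membrane, stood at 7.24, 7.84 and 7.97 in WT, 0.452, 0.866 and 0.850 in PbfRNAi, 4.92, 5.60 and 6.23 in o2 and 0.370, 0.688 and 0.398 in PbfRNAi;o2. Its ratios were 0.149 and 0.162, among the lowest of the named genes. The annexin gene anx2 (GRMZM2G061950), for a protein that binds membrane lipids with calcium, stood at 6.93, 8.20 and 7.45 in WT, 1.996, 1.92 and 2.52 in PbfRNAi, 10.1, 10.7 and 11.6 in o2 and 3.35, 2.80 and 2.47 in PbfRNAi;o2. In contrast, 5 other models with the family name annexin had mean levels of 0.127 to 6.38 in WT and none was a member. The gene GRMZM2G149923, named calmodulin in the reference table after the calcium sensor, stood at 13.1, 10.7 and 9.54 in WT, 6.49, 2.41 and 2.94 in PbfRNAi, 1.91, 2.82 and 2.38 in o2 and 0.808, 0.639 and 0.412 in PbfRNAi;o2. It was the only named member lower in o2 than in WT by over 2-fold, and lowest with both lesions. The gene GRMZM2G001953, listed under the name GTPase, stood at 25.8, 31.7 and 29.5 in WT, 1.67, 0.717 and 1.05 in PbfRNAi, 31.3, 28.1 and 29.7 in o2 and 0.478, 0.331 and 0.243 in PbfRNAi;o2. Its ratios of 0.0558 and 0.0282 were the lowest of the 15 named members, and its PbfRNAi;o2 libraries all lay below its PbfRNAi libraries.

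An actin model and a regulator lie next to each other in the reference gene order. The actin model GRMZM2G126190, of the cytoskeleton, stood at 7.61, 9.14 and 8.23 in WT, 3.32, 3.998 and 4.24 in PbfRNAi, 10.2, 14.2 and 15.1 in o2 and 3.32, 2.65 and 2.85 in PbfRNAi;o2. Its neighbour THX38 (GRMZM2G126148), a member of the trihelix family of transcription factors, stood at 18.6, 23.7 and 22.1 in WT, 8.07, 10.8 and 11.1 in PbfRNAi, 24.3, 32.8 and 33.1 in o2 and 11.1, 9.16 and 10.5 in PbfRNAi;o2. The ratios were 0.493 and 0.251 for actin and 0.477 and 0.352 for THX38, and in both the o2 libraries lay above the WT libraries. Counting by strand is not described, so reads of overlapping neighbours may not be separable. Actin transcripts as a whole were carried by other models, since GRMZM2G126010 had a mean of 140.1 in WT and 173 in PbfRNAi and GRMZM2G053299 of 89.4 and 89.6. The gene CNX5 (GRMZM2G157836), for an enzyme that helps to make the molybdenum cofactor, stood at 10.3, 7.69 and 7.15 in WT, 2.85, 2.44 and 2.35 in PbfRNAi, 10.9, 10.1 and 11.1 in o2 and 2.12, 1.80 and 2.13 in PbfRNAi;o2. The BURP domain gene BURP7 (GRMZM2G032145) stood at 41.1, 57.8 and 52.4 in WT, 7.15, 18.4 and 18.5 in PbfRNAi, 35.3, 53.1 and 52.4 in o2 and 11.8, 24.2 and 23.1 in PbfRNAi;o2, with replicate 1 lowest in each genotype.

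**Figure D2:**
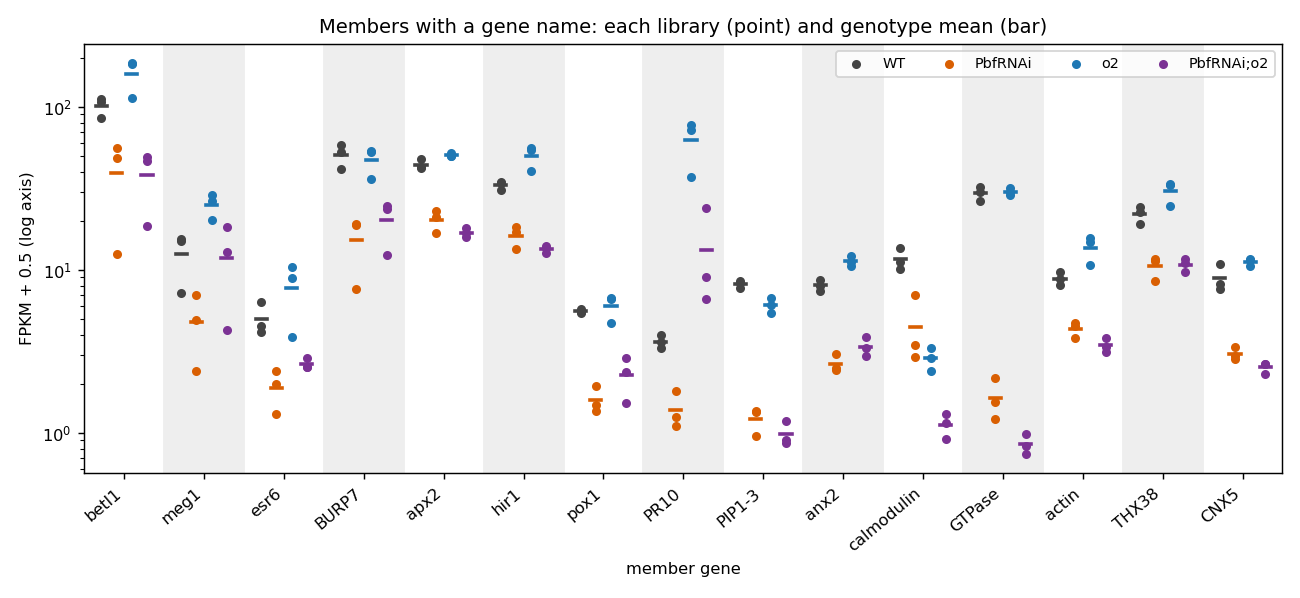
FPKM + 0.5 on a log axis of the 15 members with a gene name; each point is a library and each bar a genotype mean (3 libraries). Orange (PbfRNAi) lies below grey (WT) and purple (PbfRNAi;o2) below blue (o2) for each gene, and PR10 and calmodulin differ most between WT and o2, with WT means of 3.12 and 11.1 and o2 means of 61.8 and 2.37.

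Among members without a gene name, the most abundant over WT and o2 was AC233879.1_FG002, at 128, 177 and 168 in WT, 35.01, 53.6 and 58.1 in PbfRNAi, 258, 154 and 156 in o2 and 112, 84.1 and 74.7 in PbfRNAi;o2. The next, GRMZM5G876773, stood at 130.5, 103 and 116 in WT, 26.98, 34.7 and 39.6 in PbfRNAi, 145, 123 and 121 in o2 and 49.3, 46.97 and 46.4 in PbfRNAi;o2. Their ratios ran from 0.293 to 0.478. GRMZM2G036502 stood at 68.3, 49.04 and 45.6 in WT, 27.9, 26.6 and 22.7 in PbfRNAi, 104, 93.5 and 91.8 in o2 and 35.8, 25.98 and 25.5 in PbfRNAi;o2, and its ratios were 0.479 and 0.305. GRMZM2G437040 stood at 28.6, 50.3 and 36.6 in WT, 0, 0.653 and 0.247 in PbfRNAi, 34.2, 60.3 and 59.2 in o2 and 0, 0 and 0 in PbfRNAi;o2, so that 4 of its 6 RNAi libraries were listed at 0.

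A subset of the members was near or at 0 with Pbf RNAi, a split made after the values were seen. In 15 members every PbfRNAi and PbfRNAi;o2 library was below FPKM 0.5, and 10 of these were listed at exactly 0 in all 6. The same 15 ranged from 1.03 to 35.7 in WT libraries and from 3.71 to 37.3 in o2 libraries. The most abundant, GRMZM2G408834, stood at 35.7, 22.6 and 20.1 in WT and 37.3, 34.3 and 31.7 in o2 and was listed at 0 in all 6 RNAi libraries. GRMZM5G807110 stood at 13.4, 6.88 and 10.4 in WT and 18.9, 19.4 and 19.99 in o2, and was also listed at 0 with RNAi. No fold is given for these genes. Another 11 members were below 0.5 in all PbfRNAi libraries but not in all PbfRNAi;o2 libraries, and 82 were above 0.5 in at least 1 PbfRNAi library.

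These near-zero members were seldom in the reference table. Of the 15, 2 matched a gene of the reference annotation, against 60 of the 93 other members and 62 of all 108 (57.4%). Among the 11338 models of the same range of levels 76.0% matched. The 2 that matched were GRMZM2G006759, annotated as a long noncoding RNA, and GRMZM2G129146, which matched a protein-coding gene and a pseudogene beside it. Most near-zero members therefore have no annotation here.

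**Figure D3:**
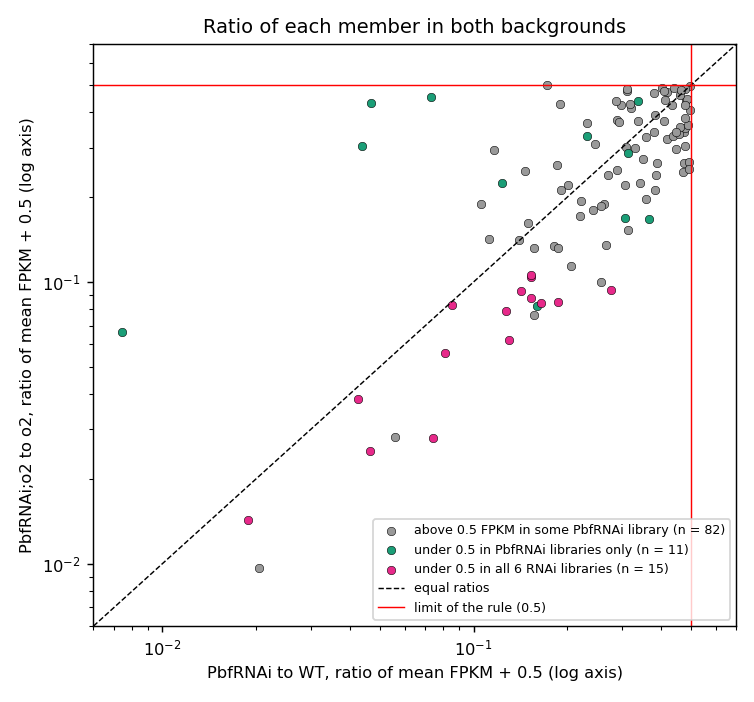
Ratio of mean FPKM + 0.5 of each member in PbfRNAi against WT (x axis) and in PbfRNAi;o2 against o2 (y axis), both on log axes, with the limit of 0.5 in red and equal ratios dashed. The 15 members below 0.5 in all 6 RNAi libraries (pink) lie at the lower left, where the added 0.5 sets the floor of the ratio, and 4 of the 108 have ratios over 3-fold apart.

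PbfRNAi;o2 replicate 1 stood apart for some members. In 5 of the 108 (4.63%) it was at least 4 times the higher of replicates 2 and 3, on FPKM + 0.5, against 50 of 11338 genes of the same range (0.441%). No other library of any genotype did so for more than 1 member, which was GRMZM2G072671 in PbfRNAi replicate 1. GRMZM2G031572 stood at 63.8, 88.6 and 82.9 in WT, 0.124, 0.0467 and 0.0831 in PbfRNAi, 87.1, 111 and 113 in o2 and 19.1, 0.0470 and 0.0769 in PbfRNAi;o2. Of its 6 RNAi libraries 5 were near 0, and PbfRNAi;o2 replicate 1 was not. GRMZM2G054916 stood at 13.4, 9.14 and 10.1 in WT, 0, 0 and 0 in PbfRNAi, 10.4, 10.8 and 10.3 in o2 and 8.51, 0 and 0 in PbfRNAi;o2, with the same single exception. GRMZM2G318882 stood at 3.09, 0.525 and 0.450 in WT, 0.193, 0.126 and 0.217 in PbfRNAi, 94.5, 205 and 202 in o2 and 78.98, 1.71 and 1.77 in PbfRNAi;o2. The other 2 were GRMZM5G894200, at 2.19, 0 and 0 in PbfRNAi;o2, and GRMZM2G096303, at 7.57, 1.43 and 1.07. Without PbfRNAi;o2 replicate 1 their ratios to o2 fell from 0.0662 to 0.00539 for GRMZM2G031572, from 0.303 to 0.0454 for GRMZM2G054916, and from 0.167 to 0.0134 for GRMZM2G318882. They fell from 0.224 to 0.0911 for GRMZM5G894200 and from 0.294 to 0.134 for GRMZM2G096303. The opposite was seen for AC208126.3_FG001, at 0.918, 8.41 and 7.82 in PbfRNAi;o2 and at 4.63, 12.8 and 13.2 in WT, which was listed at 0 in all PbfRNAi libraries.

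**Figure D4:**
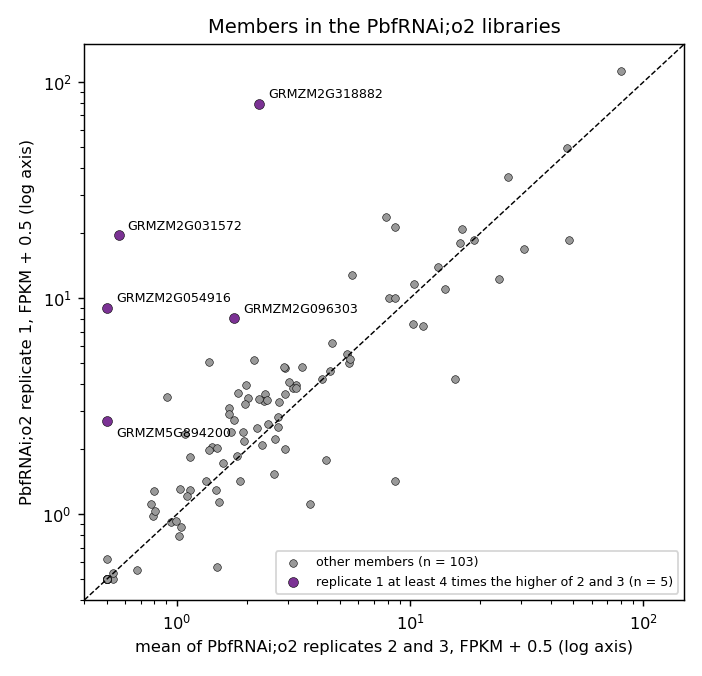
Level of each member in PbfRNAi;o2 replicate 1 (y axis) against the mean of replicates 2 and 3 (x axis), as FPKM + 0.5 on log axes, with equality dashed. The 5 labelled members lie at least 4 times above the higher of replicates 2 and 3, and AC208126.3_FG001 lies furthest below the line, at 0.918 against 8.41 and 7.82.

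The matched members were unevenly spread over the reference genome. Of 62 matched members 43 (69.4%) lay on 2 of the 10 chromosomes, 22 on one and 21 on the other, while these held 26.7% of the 8621 matched models of the same range of levels. A further 3 chromosomes, with 24.5% of those models, held none. Neither pbf1 nor o2 lies on either of the 2 chromosomes. The same 2 held 82 of 216 matched genes (38.0%) that were higher with Pbf RNAi in both backgrounds, 9 of 40 (22.5%) that were lower without O2 and 69 of 291 (23.7%) that were higher without O2. These shares are a description with no test, and the reference assembly differs from the build behind the values.

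Some members were near neighbours. Within 10 reference genes of another member lay 12 of the 62, and the like count for all genes of the range is not given. Actin GRMZM2G126190 and THX38 were adjacent, as were GRMZM6G675851 and GRMZM2G069025, and CNX5 lay 2 genes from GRMZM2G137696. GRMZM2G137696 stood at 5.02, 3.23 and 3.67 in WT, 0.815, 0.380 and 0.270 in PbfRNAi, 4.82, 5.25 and 6.09 in o2 and 0.709, 0.568 and 0.648 in PbfRNAi;o2, and GRMZM2G069025 at 2.91, 3.49 and 3.46 in WT, 1.42, 1.30 and 1.31 in PbfRNAi, 4.18, 7.89 and 7.50 in o2 and 3.10, 2.52 and 2.31 in PbfRNAi;o2. Looser series were formed of 3 or more members, each at most 60 reference genes from the next. The longest series held 5 members over 102 reference genes, namely GRMZM2G101130, GRMZM5G894200, GRMZM2G096303, GRMZM2G123896 and GRMZM2G031572. Of these, 3 are among the 5 members for which PbfRNAi;o2 replicate 1 stood above the others. Between them lay 15 other measured genes of the same range, of which none had a ratio of 0.5 or less in either comparison, with median ratios of 0.939 and 0.766 against 1.14 and 1.05 for all genes of that range. These neighbours are outside the rule by definition, and their medians, below those of all genes of the range, were not tested. Another 3 shorter series held 3, 3 and 4 members over 90, 43 and 75 reference genes. In the first of these, 2 of 23 other measured genes had a ratio of 0.5 or less in PbfRNAi against WT and none in PbfRNAi;o2 against o2. In the other two, none of 5 and none of 7 had one in either comparison.

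The effect of the o2 mutation was tested on the members as the average of o2 against WT and PbfRNAi;o2 against PbfRNAi, a measure that is uncorrelated with both comparisons of the rule. It is not independent of the rule's lower limit of 5 on the highest genotype mean. A gene low in WT could pass that limit through a high level in o2. Of 108 members 52 were higher without O2 and 7 lower, or 48.1% and 6.48%, against 59% and 4.94% of all genes tested. The median log2 change was 0.37 for the members and 0.37 for all genes. With median-of-ratios scaling, which removes the shift of the typical gene, 14 were higher and 19 lower, against 18.3% and 15.9% of all genes, with a median of 0.05 against 0.02. With the replicate number as a block 58 were higher and 8 lower (64.4% and 6.1% of all genes). Without the 4 replicate 1 libraries 67 were higher and 11 lower (69.3% and 8.15% of all genes). The members' shares were near those of all genes, and nothing particular to the members is read from them.

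**Figure D5:**
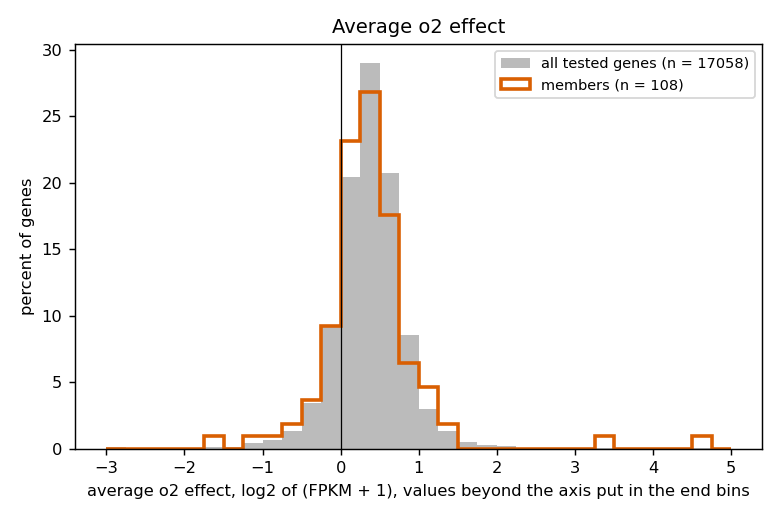
Average o2 effect as a log2 change of FPKM + 1, as percent of genes per bin, for all 17058 genes tested (grey) and for the 108 members (orange line). Both peak between 0 and 0.5, with a median of 0.37 for each, and 2 members lie far to the right, at 3.27 (PR10) and 4.54 (GRMZM2G318882).

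A few members changed well beyond that shift. PR10 rose without O2 (average log2 change 3.27 ± 0.28 (SE), limma adjusted p = 7e-06, higher in 6 of 6 libraries than any library of the matching genotype with O2), and so did GRMZM2G318882 (4.54 ± 0.80 (SE), limma adjusted p = 0.00087), both also when scaled (2.91 and 4.27). Without PbfRNAi;o2 replicate 1 the change of GRMZM2G318882 was 3.73. Rises on both scales were also found for AC208126.3_FG001 (1.48 ± 0.38 (SE), limma adjusted p = 0.0059), GRMZM2G462080 (1.26 ± 0.11 (SE), limma adjusted p = 3.7e-06), GRMZM2G004523 (1.14 ± 0.11 (SE), limma adjusted p = 9.2e-06) and GRMZM2G135132 (1.06 ± 0.09 (SE), limma adjusted p = 3.3e-06). The WT means of PR10, GRMZM2G318882, GRMZM2G004523 and GRMZM2G135132 were 3.12, 1.36, 1.90 and 3.86, and their PbfRNAi means were lower still. These genes passed the lower limit of 5 only through genotypes without O2, so the rule favoured their rises. For AC208126.3_FG001 and GRMZM2G462080 most of the average comes from transcript in PbfRNAi;o2 that was near 0 in PbfRNAi, with ratios of 12.4 and 7.57. Their ratios of o2 to WT were only 1.34 and 1.22, below the median of 1.44 for all genes of the same range. GRMZM2G462080 stood at 9.02, 8.33 and 8.93 in WT, 0.0805, 0.167 and 0.286 in PbfRNAi, 12.2, 10.5 and 9.78 in o2 and 5.66, 4.79 and 3.44 in PbfRNAi;o2. The member GRMZM2G010097 rose on both scales as well (0.87 ± 0.12 (SE), limma adjusted p = 6.6e-05; scaled 0.46, limma adjusted p = 0.015). The rises of MEG1 (1.07 ± 0.35 (SE), limma adjusted p = 0.022), GRMZM2G063375 (1.01 ± 0.32 (SE), limma adjusted p = 0.018) and GRMZM2G121137 (1.06 ± 0.26 (SE), limma adjusted p = 0.0042) were lost when scaled, at limma adjusted p = 0.18, 0.16 and 0.081. The rise of MEG1 also missed the threshold without WT replicate 1 (0.052), PbfRNAi replicate 1 (0.051) or PbfRNAi;o2 replicate 2 (0.051). With the replicate block the rises of esr6 (average log2 change 0.46, limma adjusted p = 0.077, or 0.021 with the block) and THX38 (0.25, 0.063 or 0.029) passed, as did those of GRMZM2G137696 (0.26, 0.067 or 0.045) and GRMZM6G675851 (0.26, 0.06 or 0.011). None of the 4 passed when scaled, at 0.67, 0.25, 0.95 and 0.43. A single left-out library also gave the call, o2 replicate 1 for esr6 (0.0024), THX38 (0.017) and GRMZM6G675851 (0.0093), and WT or PbfRNAi replicate 1 for GRMZM2G137696 (0.021 and 0.018). Without the 4 replicate 1 libraries 10 of the 40 members examined by name gained a call. Calls over all genes also rose then, from 59% to 69.3% higher and from 4.94% to 8.15% lower. The annexin gene anx2 rose (0.38 ± 0.09 (SE), limma adjusted p = 0.0029) but not when scaled (0.02, limma adjusted p = 0.87), and apx2 was lower only when scaled (−0.02 ± 0.09 (SE), limma adjusted p = 0.82, and scaled −0.45, limma adjusted p = 0.0016).

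All 7 members called lower without O2 were also lower when scaled. The calmodulin gene GRMZM2G149923 fell most (−1.69 ± 0.18 (SE), limma adjusted p = 1.3e-05), with all 3 o2 libraries below the WT libraries and all 3 PbfRNAi;o2 libraries below the PbfRNAi libraries. It was followed by GRMZM2G154449 (−1.11 ± 0.21 (SE), limma adjusted p = 0.00064), GRMZM2G315767 (−0.85 ± 0.15 (SE), limma adjusted p = 0.00052) and GRMZM2G359102 (−0.73 ± 0.10 (SE), limma adjusted p = 8.7e-05). GRMZM2G154449 stood at 5.33, 8.83 and 7.99 in WT, 1.34, 3.04 and 3.80 in PbfRNAi, 1.22, 3.41 and 2.71 in o2 and 0.798, 0.956 and 0.974 in PbfRNAi;o2. Small falls were found for PIP1-3 (−0.31 ± 0.10 (SE), limma adjusted p = 0.018), GRMZM2G423027 (−0.31 ± 0.09 (SE), limma adjusted p = 0.0084) and the GTPase gene (−0.30 ± 0.11 (SE), limma adjusted p = 0.029). That of the GTPase gene missed the threshold, at 0.051 to 0.073, when WT replicate 2 or 3, PbfRNAi replicate 1, o2 replicate 2 or 3 or PbfRNAi;o2 replicate 2 or 3 was left out.

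Within each background the o2 ratios are a description, since they share libraries with the rule. The o2 mean was above the WT mean in 91 of 108 members and below it in 17, but in 50 and 58 when scaled. The median ratio of o2 to WT was 1.37 for the members and 1.44 for all genes of the same range. The median ratio of PbfRNAi;o2 to PbfRNAi was 1.10 for the members and 1.34 for all, but 10 members were listed at 0 in all 6 RNAi libraries, where the added 0.5 fixes this ratio at 1. With both lesions 78 members stood at 0.5 of WT or less, with a median ratio of 0.370, and 3 stood at or above WT, which were PR10, GRMZM2G318882 and GRMZM2G004523.

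Of 25 tested models of zeins, the class that holds the known targets of PBF, 20 had a highest mean above 300 and could not be members, and the other 5 did not meet the rule in both backgrounds. Among the 25, 7 were lower and 1 higher in PbfRNAi;o2 against o2, where 7.84% and 14.4% of all genes were called, and 6 and 2 in PbfRNAi against WT, where 5.16% and 18.2% were. The gamma-zein gz50 was kept out by that limit and fell in both, from 6194 ± 1024 (SD, n = 3) to 1290.3 ± 766 and from 5571 ± 286 to 229.9 ± 44.4 (log2 −4.61 in the second, limma adjusted p = 4.6e-06). The alpha-zein z1A2_1 rose in both, from 1038 ± 256 to 22835 ± 611 in the WT background (log2 4.49, limma adjusted p = 1e-05) and from 295 ± 134 to 8824 ± 4387 in the o2 background (log2 4.82, limma adjusted p = 5.4e-06). The rise counted for gz27 against WT rests on WT libraries listed at 0, which can be failed estimates, and zein models can share reads with their copies, which makes single levels uncertain. The gamma-zein gz16 stood at 26902 ± 5129 and 24221.5 ± 3711 in o2 and PbfRNAi;o2 (adjusted p = 0.7). Of 23 starch and sucrose genes 1 was lower and 4 higher in PbfRNAi;o2 against o2 and 1 and 5 in PbfRNAi against WT. The one that fell in the o2 background was pdk1, for pyruvate phosphate dikinase, from 212 ± 21.8 to 106 ± 12.9 (log2 −0.99, limma adjusted p = 0.0013), and in the WT background mn1. Leaving out WT replicate 2, WT replicate 3 or PbfRNAi replicate 1 ended the call of mn1, and without o2 replicate 1, 5 starch genes were lower in the o2 background. For the zeins higher against WT the count was 4 without WT replicate 1 and 1 without any single one of the other WT and PbfRNAi libraries, and against o2 it was 2 without o2 replicate 1. The starch phosphorylase gene pho1 rose in both, from 176 ± 31.9 to 322 ± 18.98 and from 299 ± 51.4 to 609.6 ± 10.2.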

How the data were processed

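The authors deposited FPKM values for 39448 gene models in 12 columns, 1 per library, with titles that gave genotype and replicate. Per the labels' protocols, TRIzol and RNeasy were used for RNA, a Ribo-Zero kit was used to obtain mRNA, and read pairs were sequenced on an Illumina HiSeq. The build B73 RefGen_v3 and the tools TopHat, Bowtie2, Cufflinks and FastQC are named, per the submitters' processing notes, with versions, annotation and filters not given in the sources used here. FPKM depends on the total of a library, so abundant transcripts shift all others.

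The members, gene lists and tests were chosen with earlier results of these data known. The 17058 genes that reached FPKM 1 in 3 or more libraries were fitted on log2(FPKM + 1) by limma 3.58.1 (R 4.3.3), with 4 genotype means, a variance trend and robust empirical Bayes. Tests were two-sided, adjusted over all genes by the Benjamini-Hochberg method at 0.05, and the change of low genes is understated. The fit was tested on simulated data. Tables were handled with python 3.11.15, numpy 2.4.6 and pandas 2.3.3.

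Names and neighbours came from a RefSeq table of Zm-B73-REFERENCE-NAM-5.0, without coordinates. The name zpu1, a starch gene, was taken out of the zein list. Also, 2 further models named PDK1 were kept in the starch list by symbol. Planned promoter motifs were not analysed here. Members named are those with a gene name, the 10 most abundant, those with extreme ratios, the 10 largest average o2 effects each way and neighbours, of which the text gives a part. GRMZM2G072671, the series of neighbours and genes singled out by replicate were chosen after their values were seen. Same-numbered libraries deviated together from their genotype means (correlation 0.180 to 0.501 over 18 pairs), and for the block the numbers were taken to pair them. Replicate 1 lay apart in each genotype, so these correlations cannot show that replicates 2 and 3 are paired, and the labels give no pairing. Libraries with different numbers had correlations of −0.425 to 0.313, so the ranges overlapped. The main fit did not use the pairing, and the replicate block did. Alternatives were another pseudocount, no filter, 2 scalings, the replicate block and left-out libraries; the block on the marker lists and the transfer layer list without members were added after seeing the data.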

Additional observations from a re-analysis of the deposited data

Results flagged for a closer look

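For 2 members the o2 mutation went with opposite changes in the 2 backgrounds, with no overlap of libraries in either, and the difference was not tested because the rule used the same libraries. The share of all genes with this pattern is not given, so nothing about the members is read from this count. GRMZM2G106795, a model with no gene name, stood at 8.04, 8.09 and 8.26 in WT, 1.06, 2.28 and 1.81 in PbfRNAi, 9.78, 12.7 and 11.9 in o2 and 0.799, 0.826 and 0.451 in PbfRNAi;o2. Its ratio of o2 to WT was 1.38 and that of PbfRNAi;o2 to PbfRNAi 0.538. The actin model GRMZM2G126190 had ratios of 1.55 and 0.79. Its highest PbfRNAi;o2 library lay barely below its lowest PbfRNAi library, at 3.317 against 3.321. With median-of-ratios scaling the first ratio became 0.980 for GRMZM2G106795, which turns its direction, and 1.09 for the actin model, and the o2 and WT libraries then overlapped for both. The ratios in the RNAi background became 0.457 and 0.634, still without overlap.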

How the results depend on the processing

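The rule kept 103 to 115 genes when a single library was left out, 127 without replicate 1, 104 and 93 with an added 0.1 or 1, 117 with median-of-ratios scaling, and 52 and 208 with a limit of 0.33 or 0.67. Of the 108 members 98 were kept when scaled and 96 without replicate 1. The median ratio to WT was 0.226 and 0.340 with an added 0.1 or 1 and 0.254 when scaled, and 0.277 to 0.312 with 1 library left out; that to o2 was 0.239 to 0.290. For the average o2 effect, 9098 to 10283 genes were higher and 740 to 922 lower with 1 library left out, with 43 to 59 and 6 to 8 members. Over all genes the counts were 3128 and 2704 with median-of-ratios scaling (14 and 19 members), and 2130 and 3779 when scaling used only genes outside the top 100 by level, where 11 members were higher and 26 lower. Without replicate 1, 1391 genes were lower. With the replicate block, 58 members were higher and 8 lower.

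In PbfRNAi against WT, starch genes higher and lower numbered 3 and 2 with median-of-ratios scaling, 2 and 3 with the other scaling, and 12 and 3 without replicate 1, where 5 zeins were higher. In PbfRNAi;o2 against o2, 2 starch genes were lower with the replicate block, and without replicate 1, 7 starch genes were higher and 9 lower, and 5 zeins higher and 12 lower. With 1 library left out the zeins higher and lower were 1 to 4 and 5 to 6 against WT and 1 to 2 and 6 to 9 against o2, and the starch genes 4 to 6 and 0 to 1, and 3 to 4 and 1 to 5. The replicate block moved no other of these counts by over 1.5 times, but did so for the marker lists.

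Among the members examined by name, some average o2 effects changed sign with median-of-ratios scaling and were called with or without it. They were those of hir1 (GRMZM2G117755, −0.26), CNX5 (GRMZM2G157836, −0.30) and GRMZM5G876773 (−0.11). Other signs changed with no call in either fit, as for betl1 (0.37 to −0.065) and BURP7 (0.17 to −0.26). With the other scaling the effects that changed sign with a call in either fit were those of hir1 (−0.36), CNX5 (−0.39), actin GRMZM2G126190 (−0.31), anx2 (GRMZM2G061950, −0.063), GRMZM5G876773 (−0.21), GRMZM2G036502 (−0.035) and GRMZM2G177400 (−0.00016). Again others, betl1 and BURP7 among them, changed sign without a call. The scalings shift all genes by construction. Other causes were not tested. Depth is unknown, so values near 0 have no stated precision.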

Other observations

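Genes near 0 in one pair of genotypes and present in the other were found for each lesion. Among the 11338 models with a highest genotype mean between 5 and 300, 16 were below FPKM 0.5 in all 6 libraries with Pbf RNAi, and 81 were below 0.5 in all 6 libraries without it. For the o2 mutation 19 were below 0.5 in all 6 libraries with it and 21 in all 6 without it.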
